A study of Mus musculus with 49 samples.

Results

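The genes described here are 7 p53 target genes whose products repair damaged DNA or let cells tolerate it, namely Xpc, Ddb2, Ercc5, Polk, Polh, Rrm2b and Mgmt. They were taken by gene symbol, and all 7 were found among the 20489 genes of the 4 deposited RNA-seq tables. Each was measured in all 49 libraries, and each passed the filter on low values in every comparison.

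The cells were mouse embryonic stem cells of the TC-1 line. In the line called dTrim24, both copies of the endogenous Trim24 gene carried a C-terminal FKBP12(F36V) degron and a V5 tag, so that the small molecule dTAG13 removes the Trim24 protein. p53 was activated with doxorubicin at 1 µM, and dTAG13 was given at 500 nM. The time course held cells given dTAG13 and doxorubicin together for 2, 4, 8 or 12 h, cells given doxorubicin alone for the same times, and uninduced cells at 0 h, with 3 libraries in each group. The RING experiment held 3 groups of 4 libraries, all with p53 activated for 4 h: ligase-null cells, whose endogenous Trim24 carries a double cysteine-to-alanine change in its RING domain, dTrim24 cells given dTAG13, and dTrim24 cells with doxorubicin alone. A further experiment compared 3 libraries of dTrim24 cells given dTAG13 with 3 libraries of untreated dTrim24 cells, both uninduced, with dTAG13 for 4 h. The last compared 2 libraries of wild-type cells with p53 activated for 4 h with 2 libraries of uninduced wild-type cells. The labels call the replicates biological without describing separate cultures. The p-values rest on the spread between these libraries, which the fit shares over genes of like level. For wild-type cells, Trim24 loss at 8 h and the steps from 4 to 8 h and 8 to 12 h, that shared spread replaced the gene's own. For activation at 8 h it nearly did. Very small p-values there do not measure the spread of a gene's own 2 or 3 libraries. The dTrim24 line, the ligase-null line and the wild-type line are separate cell lines, so a difference between lines and a difference between clones cannot be told apart. No group lacked p53, so effects of p53 and other effects of doxorubicin cannot be told apart either.

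The libraries held between 14422098 and 35185256 reads in genes. Mdm2, a direct p53 target that encodes the ligase that degrades p53, averaged 966 ± 32.0 CPM (counts scaled to the library's reads, SD, n = 3) after 4 h of activation and 181 ± 4.64 CPM at 0 h (n = 3). The 3 untreated dTrim24 libraries of the uninduced experiment carry a label of activated p53 that goes against their titles. Mdm2 was at 178 to 189 CPM in them, near the 0 h level, and they are described here as uninduced. Trim24 messenger RNA is not the target of dTAG13. It was itself lower after activation, at 120.5 ± 2.52 CPM at 4 h against 211 ± 3.18 CPM at 0 h. It fell further to 67.2 ± 5.06 CPM at 8 h and 69.7 ± 2.01 CPM at 12 h. In the RING experiment it was at 97.9 ± 1.89 CPM in ligase-null cells and 123.4 ± 3.46 CPM with doxorubicin alone. Trim24 kept therefore means only that no dTAG13 was given. Trp53, the gene of p53, averaged 90.8 ± 14.6 CPM at 12 h and 292 ± 15.6 CPM at 0 h. All 8 embryonic stem cell markers had reads, and their summed level was 4888 to 4956 CPM at 0 h, 2752 to 2850 CPM at 4 h and 1002 to 1109 CPM at 12 h with Trim24 kept. The 4 primitive endoderm markers summed to 9.92 to 73.8 CPM in the time course, wild-type and RING libraries and to 426 to 493 CPM in the uninduced experiment. Fibroblast or feeder, trophoblast and mesoderm markers stayed at or under 68.8 CPM, and the 4 neuroectoderm markers lay at 56.9 to 203 CPM. The part of these marker changes in the results on the repair genes was not tested.

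Nucleotide excision repair removes bulky lesions such as those left by ultraviolet light. Xpc and Ddb2 find the lesion, and Ercc5 (XPG) is the endonuclease that cuts the damaged strand on its 3′ side. Polk and Polh encode polymerase kappa and polymerase eta, translesion polymerases that copy past lesions which stop the replicative enzymes. Rrm2b encodes the p53-inducible small subunit of ribonucleotide reductase, which supplies deoxynucleotides for repair. Mgmt encodes the methyltransferase that takes alkyl groups off guanine directly. Targets of p53 in this class are known mainly from human cells, where DDB2 and XPC are standard examples.

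On GRCm38, the build called mm10, Xpc lies on chromosome 6 (91489305 to 91515888, minus strand) and Ddb2 on chromosome 2 (91211572 to 91236982, minus strand). Ercc5 lies on chromosome 1 (44147744 to 44181260, plus strand), Polk on chromosome 13 (96480690 to 96542579, minus strand) and Polh on chromosome 17 (46171355 to 46202645, minus strand). Rrm2b lies on chromosome 15 (37923952 to 37961318, minus strand) and Mgmt on chromosome 7 (136894614 to 137130266, plus strand). Ddb2 shares 2527 bases with Acp2 on the opposite strand. Rrm2b overlaps a processed pseudogene (Gm3362) by 466 bases and an antisense gene by 848 bases, Polk overlaps a gene on the opposite strand by 388 bases, and Mgmt overlaps an unclassified transcript on its own strand by 2552 bases. The counting used the default settings of featureCounts, which ignore strand, so reads in these overlaps could not be assigned with certainty.

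RefSeq promoter windows of GRCm38.p6 were given for 4 of the 7 genes, 6 windows in all. The 250 bases before 4 of these starts are shown for Ercc5 and Polk, which rose most at 2 and 4 h, and for Mgmt, which did not pass both thresholds. The p53 element was searched on both strands over 250 bases before and 50 after the start, as an exact match to the p53 half-site consensus, or as a pair of half-sites with a spacer of up to 13 bases, at most 3 mismatches in all and the core C and G of each half-site intact. Capitals mark the matches.
Ercc5, chr1:44147494-44147743, plus strand: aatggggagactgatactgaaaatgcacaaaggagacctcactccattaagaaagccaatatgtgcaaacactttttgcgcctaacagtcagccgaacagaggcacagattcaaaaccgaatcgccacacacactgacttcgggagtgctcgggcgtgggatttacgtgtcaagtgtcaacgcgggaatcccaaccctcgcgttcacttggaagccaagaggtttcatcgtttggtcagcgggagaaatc
Polk, outer start, which also holds the start of Col4a3bp, chr13:96542580-96542829, minus strand: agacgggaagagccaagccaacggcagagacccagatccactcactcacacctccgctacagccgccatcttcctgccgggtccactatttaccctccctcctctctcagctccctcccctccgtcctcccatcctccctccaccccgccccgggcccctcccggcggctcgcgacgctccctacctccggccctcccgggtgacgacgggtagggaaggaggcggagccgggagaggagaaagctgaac
Polk, internal start, chr13:96519188-96519437, minus strand: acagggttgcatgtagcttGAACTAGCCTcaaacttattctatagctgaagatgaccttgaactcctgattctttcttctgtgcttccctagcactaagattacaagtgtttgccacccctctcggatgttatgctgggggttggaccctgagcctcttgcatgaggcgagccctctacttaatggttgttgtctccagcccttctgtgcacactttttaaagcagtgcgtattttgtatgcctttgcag
Mgmt, outer start, chr7:136894336-136894585, plus strand: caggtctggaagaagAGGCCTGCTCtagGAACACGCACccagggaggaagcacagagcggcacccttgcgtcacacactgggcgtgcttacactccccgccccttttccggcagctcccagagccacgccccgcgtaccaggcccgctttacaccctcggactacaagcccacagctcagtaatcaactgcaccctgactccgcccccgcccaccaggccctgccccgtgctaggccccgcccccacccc
The window of the internal Polk start held 1 exact half-site at position -231 from that start. The outer Mgmt window held 1 pair of half-sites at position -235, with 3 mismatches and a spacer of 3 bases. Neither match was found in the Ercc5 window, the outer Polk window, the Polh window or the internal Mgmt window. An exact half-site stood in 2745 of all 32851 promoters (8.36%), and a pair of half-sites in 5114 (15.6%). A match is a description of the letters and not a bound site.

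The first question was which repair genes respond when p53 is activated. Before activation the 7 genes were expressed at moderate to low levels. Per kilobase of annotated exon, Ercc5 was the highest at 0 h, at 7.60 ± 0.400 CPM per kb (SD, n = 3). Polk (6.05 ± 0.172) and Mgmt (6.01 ± 0.208) came next and overlapped. Xpc (4.80 ± 0.198) and Polh (4.37 ± 0.257) followed without overlapping, then Ddb2 (2.09 ± 0.0220) and Rrm2b (1.01 ± 0.164). At 12 h of activation the spread was far wider. Ercc5 stood at 36.3 ± 2.96 CPM per kb and Polk at 14.0 ± 1.15, followed by Mgmt at 9.28 ± 0.811, Xpc at 6.60 ± 0.502, Polh at 4.62 ± 0.124, Rrm2b at 3.61 ± 0.0530 and Ddb2 at 2.6 ± 0.154. No neighbours in that order overlapped, and Rrm2b and Ddb2 had changed places.

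After 4 h of activation with Trim24 kept, 3 of the 7 genes passed an adjusted p under 0.01 and a log2 change of at least 0.75, and all 3 rose: Ercc5, Polk and Rrm2b. Of all 15772 genes tested, 12.9% rose by the same rule. At 2 h the count was 2 of 7 (Polk and Ercc5), where 3.07% of genes rose. At 8 h and at 12 h it was the same 3 of 7, where 27.0% and 30.3% of genes rose. So many genes rose at 8 and 12 h that 3 of 7 at these times is not read as a result about these genes. No member fell by this rule at any time. In bulk RNA a change in the share of cells that express a gene and a change in the RNA per cell cannot be told apart.

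Ercc5 had 138, 143 and 144 CPM at 4 h, against 47.1, 44.3 and 42.4 CPM at 0 h. The groups lay far apart, at a 3.16-fold change (log2 1.66, SE 0.05, limma, adjusted p = 2.17e-15). Its rise continued through the time course, with means of 44.6, 76.2, 142, 202 and 213 CPM at 0, 2, 4, 8 and 12 h. The step between 2 and 4 h was 0.89 on the log2 scale and passed both thresholds (adjusted p = 7.99e-11), as 7.69% of genes did upwards. The step between 4 and 8 h was smaller (log2 0.51, adjusted p = 5.92e-15), and the one between 8 and 12 h was 0.07 (adjusted p = 0.488). The change at 2 h, log2 0.77, lay just above the limit of 0.75. It was 0.73 without the third 0 h library.

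Polk had 98.9, 108 and 109 CPM at 4 h, against 34.6, 33.7 and 32.6 CPM at 0 h. This is a 3.10-fold change (log2 1.63, SE 0.06, limma, adjusted p = 6.78e-15) with no overlap. Polk was also the fastest of the 7, with 76.1, 70.3 and 77.9 CPM already at 2 h (log2 1.14, adjusted p = 9.37e-10). Its level then turned. The mean was 77.9 CPM at 8 h and 77.8 CPM at 12 h, and the 8 h libraries were lower than the 4 h libraries by a log2 change of -0.43 (adjusted p = 9.65e-10), short of the limit of 0.75. Ercc5 and Polk thus reached similar folds at 4 h and differed afterwards, Ercc5 going on to 4.74-fold at 12 h and Polk standing at 2.30-fold.

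Rrm2b had 15.6, 16.8 and 15.4 CPM at 4 h, against 9.47, 7.65 and 10.6 CPM at 0 h. The groups did not overlap (1.70-fold, log2 0.77, SE 0.11, limma, adjusted p = 4.42e-06), but the change lay at the limit of 0.75. It was 0.72 after median centring, 0.59 after quantile normalization, 0.64 without the second 0 h library and 0.73 without the second 4 h library. The main rise of Rrm2b came late. At 8 h it had 35.9, 30.7 and 32.7 CPM, a 3.5-fold change from 0 h (log2 1.81, adjusted p = 2.72e-35). Between 4 and 8 h it rose by 1.04 on the log2 scale (adjusted p = 4.96e-31), the only member past both thresholds in that step, where 16.6% of genes rose. The 12 h mean, 33.0 ± 0.485 CPM, was level with that at 8 h, 33.1 ± 2.59 CPM. Between 8 and 12 h none of the 7 genes passed both thresholds in limma, and none had an unadjusted p under 0.05 or passed with voom, while 6.42% of all genes passed in one direction or the other.

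**Figure D1:**
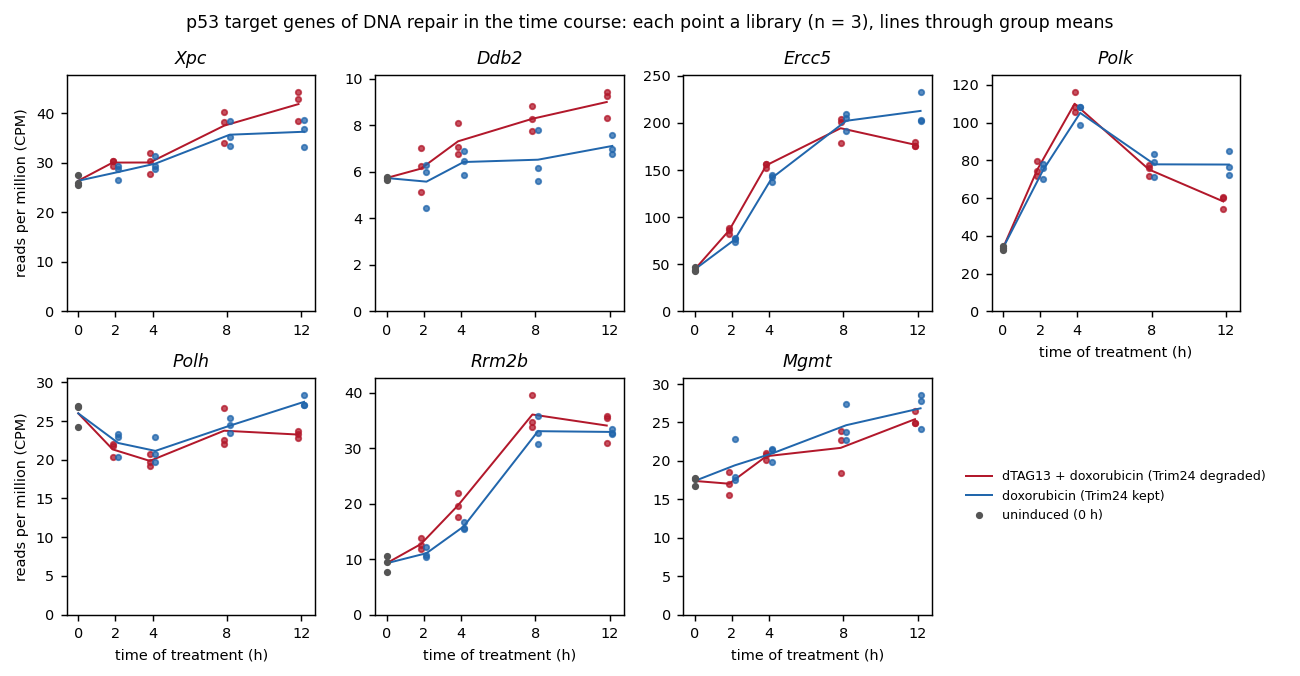
CPM of the 7 genes (y axis, from 0) against time of treatment in hours (x axis) in the time course, with each point a library, red for dTAG13 with doxorubicin, blue for doxorubicin alone and grey for 0 h, and lines through group means. Polk peaks at 4 h, Ercc5 climbs to 202 CPM at 8 h and Rrm2b climbs mainly between 4 and 8 h, while Ddb2 stays between 4.45 and 9.42 CPM.

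The lesion finders Xpc and Ddb2 changed far less than the nuclease Ercc5. Xpc had 38.7, 33.3 and 36.8 CPM at 12 h, against 25.6, 26.0 and 27.6 CPM at 0 h. That is a 1.37-fold difference without overlap (log2 0.45, SE 0.08, limma, adjusted p = 3.54e-05), under the limit of 0.75. At 4 h Xpc was at 28.9 to 31.3 CPM (log2 0.18, adjusted p = 0.0313). Ddb2 had 6.75, 7.57 and 7.0 CPM at 12 h, against 5.78, 5.74 and 5.66 CPM at 0 h (log2 0.29, 95% interval 0.05 to 0.54, adjusted p = 0.0263). Ddb2 rested on 76 to 282 reads per library, the fewest of the 7. Its direction depended on the scaling, with a log2 change at 12 h of -0.26 after quantile normalization. Its neighbour Acp2, which overlaps it, moved the other way and averaged 7.85 CPM at 12 h and 13.4 CPM at 0 h. The part of Acp2 reads in the Ddb2 counts was not tested.

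Mgmt had 28.5, 27.8 and 24.2 CPM at 12 h, against 16.7, 17.7 and 17.8 CPM at 0 h. The groups did not overlap (1.53-fold, log2 0.61, SE 0.09, limma, adjusted p = 3.52e-06), and the change lay under 0.75. Polh was the only member lower at 4 h, with 20.7, 23.0 and 19.8 CPM, against 27.0, 24.2 and 26.8 CPM at 0 h (log2 -0.29, SE 0.08, adjusted p = 0.00272). It was back at 27.1, 28.3 and 27.0 CPM at 12 h (log2 0.08, adjusted p = 0.333, with the sign turned by median centring). The adjusted p for Polh at 4 h lay at or above 0.01 without the first or the third 0 h library (0.0195 and 0.0136) and without the third 4 h library (0.0243). That for Mgmt at 4 h, 0.00533, lay above 0.01 without the first 0 h library (0.0289) and without the first or second 4 h library (0.0226 and 0.0220). With a replicate block the 2 values were 0.0101 for Polh and 0.0166 for Mgmt.

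By the adjusted p alone, with no limit on the size, 5 of the 7 genes passed at 4 h, 5 at 8 h and 5 at 12 h. The shares of all genes tested that passed by this rule were 49.2%, 74.8% and 78.1%, so at 8 and 12 h the 7 genes passed about as often as genes at large. The 4 h and 0 h libraries did not overlap for any of the 7 genes, and nor did the 12 h and 0 h libraries, while 63.8% and 84.4% of all genes had no overlap at these times. The median log2 change of the 7 genes was 0.26 at 4 h and 0.61 at 12 h, against -0.01 and 0.04 over all genes tested. Median centring moved the median of all genes by -0.21 at 8 h and -0.22 at 12 h, and Xpc then stood at 0.22 and 0.24 and Mgmt at 0.28 and 0.40 on the log2 scale. Quantile normalization moved it by -0.12 and -0.15. The share of higher genes among all genes past both thresholds was 59.6% at 8 h and 56.9% at 12 h, against 45.9% and 46.0% after median centring and 47.9% and 47.1% after quantile normalization. At 4 h it was 69.0%, and 56.0% after quantile normalization.

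Wild-type cells answered the same question in an untagged line. Here 2 of the 7 genes, Polk and Ercc5, passed both thresholds upwards, as 7.99% of genes did. Polk had 99.2 and 93.4 CPM in activated wild-type cells, against 41.4 and 36.6 CPM in uninduced wild-type cells (log2 1.3, SE 0.09, limma, adjusted p = 2.16e-48). Ercc5 had 132 and 122 CPM in activated cells, against 58.4 and 59.2 CPM in uninduced cells (log2 1.1, SE 0.09, adjusted p = 3.38e-36). Both genes stood apart clearly between the groups. Rrm2b had 17.7 and 17.4 CPM in activated cells, against 12.4 and 12.1 CPM in uninduced cells (log2 0.51, adjusted p = 1.95e-05, or 0.0504 without the first activated library), short of the limit on size. Xpc (log2 0.11, 95% interval -0.08 to 0.30), Ddb2 (0.01, -0.25 to 0.27), Mgmt (-0.14, -0.36 to 0.08) and Polh (-0.24, -0.42 to -0.05) did not pass the adjusted p.

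**Figure D2:**
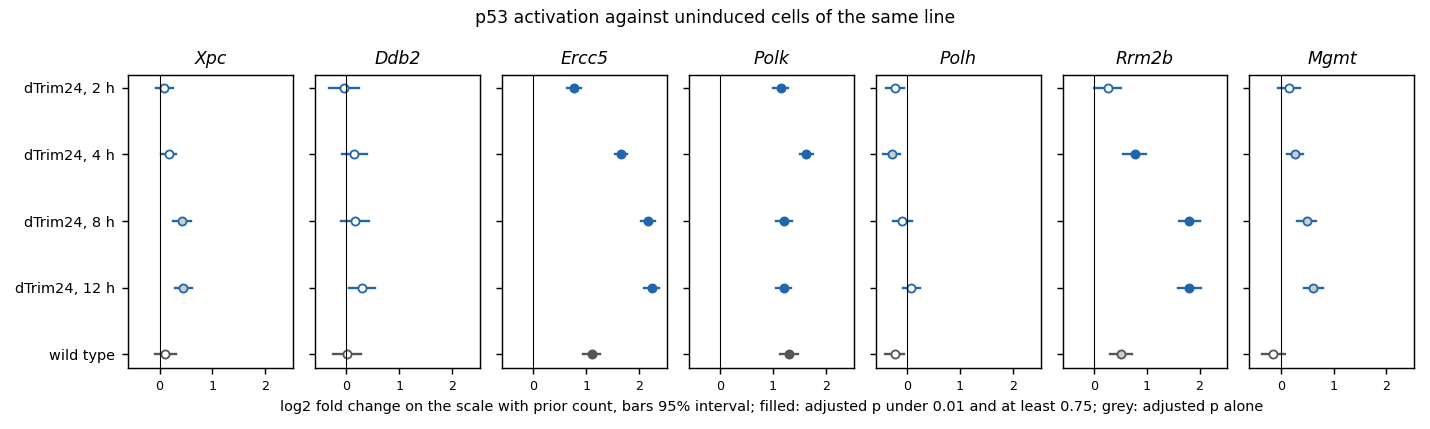
Log2 fold change of each gene on p53 activation (x axis, point and 95% interval), with rows for 2, 4, 8 and 12 h in dTrim24 cells and for wild-type cells, each against uninduced cells of the same line. Filled points passed both thresholds, grey points the adjusted p alone. Filled points are found for Ercc5 and Polk in all 5 rows and for Rrm2b at 4, 8 and 12 h, from log2 0.77 up to 2.24.

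A further 91 repair genes came from 6 lists (nucleotide excision repair, translesion synthesis, deoxynucleotide supply, direct reversal and alkylation repair, base excision repair, mismatch repair). None of the 91 passed both thresholds at 4 h in limma, nor with voom, where 12.9% of all genes rose. By the adjusted p alone 14 were higher and 29 lower, where 49.2% of all genes passed in one direction or the other. An unadjusted p under 0.05 was found for 59, a count without a share over all genes. The median log2 change of the 91 was -0.09. At 12 h, 10 of the 91 rose and 36 fell, with a median of -0.50, where 30.3% of all genes rose and 22.9% fell. That split over all genes moves with the scaling, as given above, and the list counts were not repeated under each scaling. Nucleotide excision repair genes outside the 7 gave 3 that rose and 14 that fell of 28. Those that rose were Uvssa (22.3 ± 0.516 CPM at 12 h, 6.27 ± 0.836 CPM at 0 h), Ercc4 and Cul4a, and they are named here after their values were seen, as are the genes that follow. Ercc4 is the XPF subunit of the nuclease that cuts on the 5′ side, opposite Ercc5. It had 90.3 ± 1.54 CPM at 12 h and 30.0 ± 0.735 CPM at 0 h (log2 1.58, limma, adjusted p = 1.17e-13). At 8 h Ercc4 was still at 26.3 ± 0.953 CPM. Its rise came between 8 and 12 h (log2 1.77), a step in which Ercc5 changed by 0.07. Rad23b, which stabilises Xpc, had 170 ± 14.8 CPM at 12 h and 637 ± 22.0 CPM at 0 h (log2 -1.91, adjusted p = 1.74e-14). So the partner of Xpc fell at the time when Xpc itself was at 1.37-fold.

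Of the translesion genes outside the 7, none rose and 5 of 15 fell at 12 h, Poli among them (24.7 ± 3.10 CPM at 12 h, 50.2 ± 3.94 CPM at 0 h), which encodes the polymerase most closely related to polymerase eta. In deoxynucleotide supply 2 of 14 rose and 4 fell. Rrm1, the large subunit of ribonucleotide reductase with which the Rrm2b protein works, had 171 ± 14.7 CPM at 12 h and 459 ± 4.28 CPM at 0 h (log2 -1.43, limma, adjusted p = 6.05e-13). It fell while Rrm2b rose. In direct reversal and alkylation repair, Alkbh3 and Mpg rose and Ascc3 fell, of 6. Base excision repair gave 3 that rose and 9 that fell of 20, and mismatch repair none that rose and 3 that fell of 8. In activated wild-type cells none of the 91 passed both thresholds in limma or voom, with 37 at an unadjusted p under 0.05. There 7.99% of all genes rose by both thresholds. On Trim24 loss none passed at 12 h (31 at an unadjusted p under 0.05) or in the RING experiment (41), in limma or voom. Of all genes, 4.11% and 1.15% passed both thresholds in these comparisons. The counts by unadjusted p have no share over all genes beside them. In ligase-null cells against cells with Trim24 kept, Cul4a (log2 0.95) and Poln (0.80) rose, and voom called 1 of the 91. Of all genes, 6.95% passed both thresholds there in one direction or the other. Poln lay near the lowest values, at 0.870 ± 0.115 CPM in ligase-null cells and 0.361 ± 0.164 CPM with Trim24 kept.

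In the genome, 3 of the members start within 1 kb of a gene on the other strand. The starts of Polk and Col4a3bp (a ceramide carrier) are 39 bases apart, those of Xpc and Lsm3 (a small RNA-binding protein of the splicing machinery) 40 bases, and those of Polh and Xpo5 (a nuclear export factor) 137 bases. Their values are set side by side here. Col4a3bp stood at a log2 change of -0.04 at 4 h (limma, adjusted p = 0.527), where Polk stood at 1.63. Lsm3 stood at -1.0 at 12 h (adjusted p = 1.16e-09), where Xpc stood at 0.45. Xpo5 stood at -0.45 at 12 h (adjusted p = 6.67e-07), where Polh stood at 0.08, and at 4 h Xpo5 stood at -0.10 and Polh at -0.29. Between 4 and 8 h Col4a3bp changed by -0.44 (adjusted p = 3.2e-08) and Polk by -0.43. The difference between the members of a pair was not tested.

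**Figure D3:**
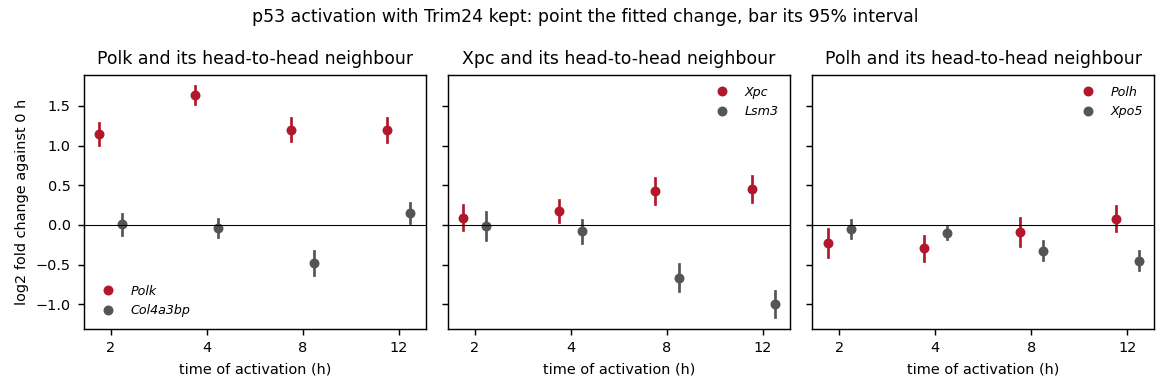
Log2 fold change against 0 h (y axis, point and 95% interval) at 2, 4, 8 and 12 h of activation with Trim24 kept, for Polk, Xpc and Polh (red) and the genes that start next to them on the other strand (grey). Polk stands at 1.14 or higher at all 4 times, while Col4a3bp lies between -0.48 and 0.15, and Lsm3 falls to -1.0.

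Over the 9 group means of the time course, the closest pairs among the members were Xpc with Rrm2b, at a Pearson's r of 0.94, and Rrm2b with Ercc5, at 0.93. These values describe 9 points that share one line and one treatment. Polh and Polk followed the other members least closely. Polh had an r between -0.61 with Polk and 0.40 with Mgmt. Polk reached 0.61 with Ercc5, 0.29 with Rrm2b and 0.25 with Mgmt, and stood at 0.16 with Ddb2 and 0.12 with Xpc. Among 13871 genes, those most alike were Gask1b (0.998) and Cnga3 (0.997) for Ercc5, Vinac1 (0.997) and Myo7b (0.996) for Rrm2b, and Neurod1 (0.971) and Sirt4 (0.969) for Polk. They were Galnt16 (0.993) and Reck (0.992) for Xpc, Tjp1 (0.990) and Thrb (0.986) for Ddb2, and Ifi27 (0.987) and Acy3 (0.985) for Mgmt. Polh had the least close matches, Ttc30a1 (0.929) and Mob3b (0.927).

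The second question was whether loss of Trim24, a chromatin reader and ubiquitin ligase that is known as a negative regulator of p53, alters these genes. In uninduced cells it did not measurably do so. None of the 7 passed in limma or voom, and none had an unadjusted p under 0.05, where 0.0781% of all genes passed both thresholds. The log2 changes ran between -0.12 for Polk (95% interval -0.26 to 0.02) and 0.11 for Mgmt (-0.06 to 0.29). Rrm2b had 8.88, 8.98 and 8.93 CPM in dTAG13-treated cells, against 9.18, 8.90 and 8.81 CPM in untreated dTrim24 cells. The groups overlapped for all 7 genes. The share of all genes without overlap was counted only for activation at 4 and 12 h. Overlap in this and the other comparisons therefore describes single genes and is not read as a result about the 7 genes.

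With p53 activated in the time course, none of the 7 passed both thresholds on Trim24 loss at 2, 4, 8 or 12 h, in limma or with voom. The shares of all genes that passed both thresholds were 0.338%, 1.15%, 1.58% and 4.11% at these times. Unadjusted p was under 0.05 for 1 gene at 2 h, 2 at 4 h, 1 at 8 h and 5 at 12 h. The share of all genes at an unadjusted p under 0.05 was not counted in any comparison. Counts by that rule are therefore not read as a result about the 7 genes or the 91 further repair genes. At 4 h Ercc5 had 153, 156 and 156 CPM in Trim24-degraded cells, against 138, 143 and 144 CPM with Trim24 kept. The groups did not overlap, but the difference was small (1.09-fold, log2 0.13, 95% interval 0.03 to 0.23, limma, adjusted p = 0.0831). Rrm2b at 4 h had 19.6, 22.0 and 17.6 CPM in degraded cells, against 15.6, 16.8 and 15.4 CPM with Trim24 kept (1.23-fold, log2 0.30, 95% interval 0.12 to 0.48, adjusted p = 0.0268). Polk differed by 0.07 (-0.05 to 0.18) and Xpc by 0.01 (-0.14 to 0.16).

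At 12 h Polk and Ercc5 were lower after Trim24 loss. Polk had 60.4, 54.1 and 60.3 CPM in degraded cells, against 84.8, 72.3 and 76.3 CPM with Trim24 kept, with no overlap (0.75-fold, log2 -0.41, SE 0.07, limma, adjusted p = 1.34e-04). Ercc5 had 176, 180 and 175 CPM in degraded cells, against 233, 203 and 203 CPM with Trim24 kept, also with no overlap (0.83-fold, log2 -0.26, SE 0.07, adjusted p = 0.00330). These 2 of the 7 passed the adjusted p alone, where 19.9% of all genes did, a share too near to read as a result about the 7 genes. The Ercc5 value rested on single libraries, being -0.20 (adjusted p = 0.0197) without the first library with Trim24 kept, which was the highest, and 0.0113 to 0.0213 in adjusted p without any 1 degraded library. Mdm2 was lower at that time as well, at 730 ± 11.1 CPM in degraded cells and 1167 ± 42.8 CPM with Trim24 kept (log2 -0.68, adjusted p = 8.03e-09), and so was Col4a3bp beside Polk (-0.53, adjusted p = 4.16e-06). Polh had 22.8, 23.3 and 23.7 CPM in degraded cells, against 27.1, 28.3 and 27.0 CPM with Trim24 kept, without overlap (log2 -0.24, 95% interval -0.40 to -0.07, adjusted p = 0.0261), and did not pass. Nor did Ddb2, which stood the other way with 8.31, 9.42 and 9.25 CPM in degraded cells, against 6.75, 7.57 and 7.0 CPM with Trim24 kept (log2 0.32, 95% interval 0.09 to 0.56, adjusted p = 0.0306). Primitive endoderm markers summed to 32.1 to 35.3 CPM in degraded cells and to 21.1 to 23.1 CPM with Trim24 kept at 12 h, and 2 of the 4 passed both thresholds upwards. Their part in these differences was not tested.

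The effect of Trim24 loss at 12 h was then set against its effect at 4 h in one fit. Both compounds were given for the same hours, so the length of p53 activation and the length of Trim24 loss cannot be told apart. For Polk the difference between the 2 effects was -0.48 (SE 0.09, limma, adjusted p = 5.72e-04), and for Ercc5 it was -0.39 (SE 0.08, adjusted p = 7.33e-04). By the adjusted p alone 2 of the 7 passed, where 12.0% of all genes did. For 2 h and 8 h against 4 h none of the 7 passed by the adjusted p, with voom or limma, and 0 and 1 had an unadjusted p under 0.05. The shares of all genes that passed by the adjusted p were 0.0787% and 0.254%.

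The RING experiment repeated Trim24 loss at 4 h in 4 libraries per group. The degraded libraries held 24492233 to 33893100 reads in genes and those with Trim24 kept 16669410 to 21072810, without overlap. Of the 91 further repair genes, 75 stood above 0 in this comparison, at a median log2 change of 0.104, against 0.019 over all genes tested. The part of depth in these values was not tested. Again none of the 7 passed both thresholds in limma or voom, where 1.15% of all genes passed them. An unadjusted p under 0.05 was found for 3 of the 7, a count without a share over all genes. By the adjusted p alone Xpc and Ercc5 passed, as 13.6% of all genes did. Xpc had 43.0, 36.1, 38.9 and 40.5 CPM in Trim24-degraded cells, against 35.2, 32.4, 34.6 and 29.9 CPM with Trim24 kept (1.20-fold, log2 0.26, SE 0.07, adjusted p = 0.00325). No library of one group reached into the other. The time course gave 0.01 for Xpc at the same 4 h, and the difference between the 2 experiments was not tested. The adjusted p for Xpc was 0.0316 without replicate 4 of the degraded group and 0.0147 and 0.0127 without replicates 5 and 7 of the group with Trim24 kept. Lsm3, which starts 40 bases from Xpc, was higher as well (log2 0.33, adjusted p = 2.17e-04).

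Ercc5 had 140, 131, 146 and 143 CPM in Trim24-degraded cells, against 124, 123, 118 and 113 CPM with Trim24 kept (1.17-fold, log2 0.23, SE 0.05, limma, adjusted p = 6.44e-04). The groups did not overlap, in the direction seen at 4 h of the time course. Polk had 94.1, 91.7, 90.7 and 96.4 CPM in degraded cells, against 94.4, 103, 107 and 97.7 CPM with Trim24 kept, and these overlapped (log2 -0.11, 95% interval -0.21 to 0.00, adjusted p = 0.133). Rrm2b, Mgmt and Ddb2 stood at 0.15, 0.15 and 0.12 and Polh at -0.13, all with overlapping groups.

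**Figure D4:**
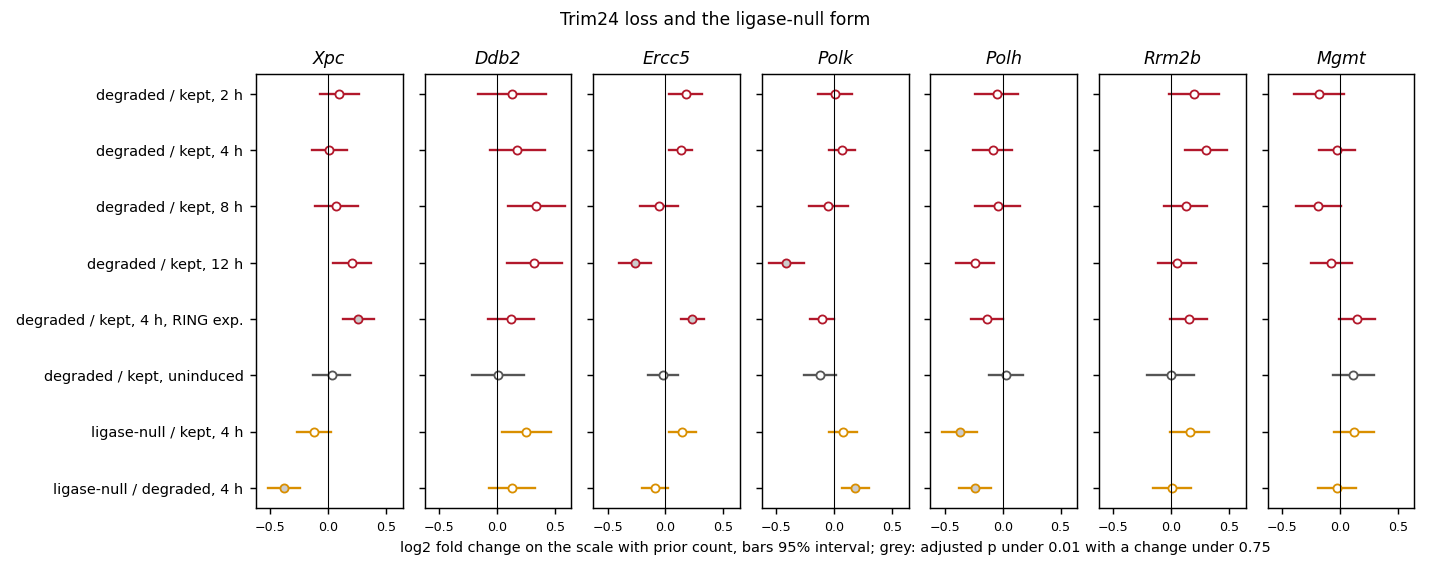
Log2 fold change of each gene (x axis, point and 95% interval) for Trim24-degraded cells over cells with Trim24 kept, at 2, 4, 8 and 12 h, in the RING experiment and in uninduced cells, and for ligase-null cells over each of these groups. Open points did not pass the adjusted p, grey points passed it with a change under 0.75. All points lie between -0.41 and 0.34.

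The third question was whether the RING domain, which carries the ubiquitin ligase activity of Trim24, matters for these genes. In ligase-null cells against dTrim24 cells with Trim24 kept, none of the 7 passed both thresholds in limma or voom, where 6.95% of all genes passed them. An unadjusted p under 0.05 was found for 3 of the 7, a count without a share over all genes. By the adjusted p alone Polh passed, as 27.3% of all genes did. Polh had 21.4, 21.9, 22.1 and 21.7 CPM in ligase-null cells, against 28.1, 30.2, 29.4 and 25.5 CPM with Trim24 kept (0.77-fold, log2 -0.37, SE 0.07, adjusted p = 1.35e-04). The ligase-null libraries were very close to one another and all lower. This value passed under all 16 alternatives, with a highest adjusted p of 0.00341. Xpo5, which starts 137 bases from Polh, was lower as well (log2 -0.24, adjusted p = 4.03e-04). Ercc5 was at 143, 131, 127 and 126 CPM in ligase-null cells (log2 0.14, 95% interval 0.03 to 0.26, adjusted p = 0.0457) and Polk at 111, 111, 106 and 95.9 CPM (0.08, -0.05 to 0.20).

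In ligase-null cells against Trim24-degraded cells, none of the 7 passed both thresholds in limma or voom, where 6.68% of all genes passed them. An unadjusted p under 0.05 was found for 3 of the 7, and 3 passed the adjusted p alone, where 36.2% of all genes did. Neither count is read as a result about the 7 genes. Xpc had 32.2, 28.0, 31.4 and 29.5 CPM in ligase-null cells, against 43.0, 36.1, 38.9 and 40.5 CPM in degraded cells (0.77-fold, log2 -0.38, SE 0.07, adjusted p = 2.26e-05). The groups did not overlap, and Lsm3 beside it was lower too (-0.45, adjusted p = 6.65e-07). Polh stood at -0.24 (adjusted p = 0.00465), with Xpo5 at -0.18 (adjusted p = 0.00408), and Polk at 0.18 (adjusted p = 0.00737). Both lost the adjusted p when single libraries were left out, at 0.0104 to 0.0239 for Polh and 0.0121 to 0.0355 for Polk. The ligase-null line also differed in cell type markers. All 4 primitive endoderm markers passed both thresholds upwards, with sums of 67.4 to 73.8 CPM in ligase-null cells, against 14.3 to 16.4 CPM in degraded cells and 9.92 to 12.5 CPM with Trim24 kept. Neuroectoderm markers summed to 74.0 to 90.5 CPM in ligase-null cells, against 162.7 to 180.5 CPM in degraded cells and 149.5 to 174.8 CPM with Trim24 kept, with 1 of 4 markers higher and 1 lower in either comparison. Fibroblast or feeder markers summed to 16.5 to 17.6 CPM in ligase-null cells, against 27.9 to 29.9 CPM in degraded cells and 28.0 to 31.8 CPM with Trim24 kept. Its embryonic stem cell markers summed to 2399 to 2766 CPM, overlapping both other groups. The part of these marker differences in the values of Polh and Xpc was not tested.

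**Figure D5:**
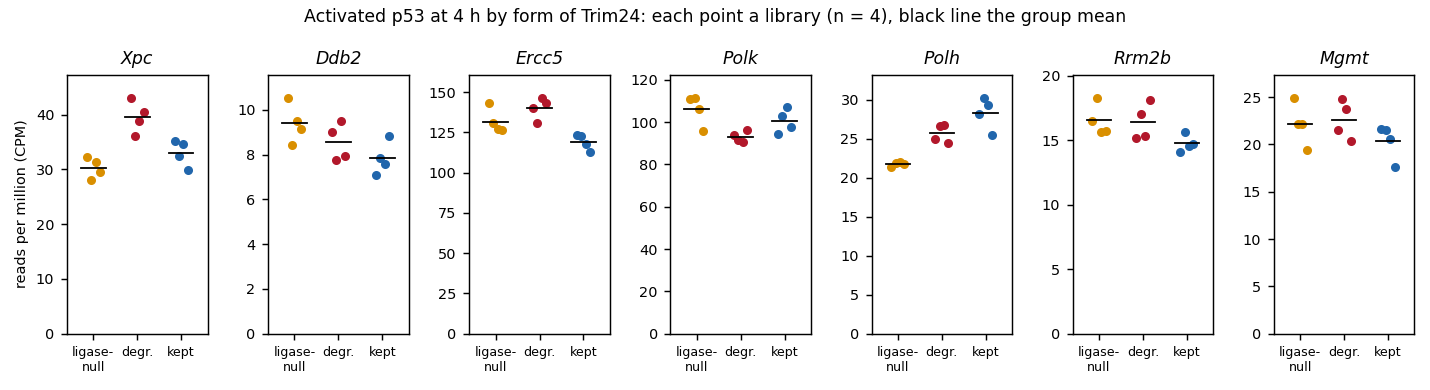
CPM of the 7 genes (y axis, from 0) in the RING experiment, all with p53 activated for 4 h, with ligase-null, Trim24-degraded (degr.) and Trim24-kept libraries from left to right, each point a library and the black line the group mean. The ligase-null libraries of Polh sit at 21.4 to 22.1 CPM, under every other library, and the degraded libraries of Xpc at 36.1 to 43.0 CPM lie above all others.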

How the data were processed

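RNA-seq libraries (stranded total RNA) of mouse embryonic stem cells were sequenced and demultiplexed with bcl2fastq 2.17 or 2.20, per the labels. The authors aligned reads to mm10 with STAR, placing multimapping reads at random, and counted protein-coding genes with featureCounts. Default counting settings were used, which ignore strand. The deposited values are log2 CPM that the authors made with edgeR, using TMM scaling and a prior count of 8. CPM without the prior and whole reads were recovered from them, to within 0.01 of a whole number, and no column lacked a sample.

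Groups were compared with limma 3.58.1 in R 4.3.3 on the log2 values, with trended, robust moderation, over the groups compared only. Genes were tested when enough libraries for the smaller group lay 0.5 above the lowest value of -1.48, and p-values were adjusted over all genes tested (Benjamini-Hochberg). Both thresholds means an adjusted p under 0.01 and a log2 change of at least 0.75. The fit was tested on simulated data. The comparisons were repeated with limma-voom on recovered whole reads, other scalings, filters and moderation, a pseudocount of 0.5, all groups in the fit, a replicate block and each library left out. Named genes were the 7 members, up to 3 genes of each repair list past both thresholds at 4 h, neighbours within 1 kb, and the 2 genes most alike in pattern. No list gene passed at 4 h, so those named at 12 h or in ligase-null cells were chosen after their values were seen. The members, lists and promoter motif were chosen with earlier results of these data known. Gene coordinates are from GENCODE M21, not the authors' release.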

Additional observations from a re-analysis of the deposited data

Results flagged for a closer look

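For Polk and Ercc5 the effect of Trim24 loss differed between times of treatment, by a test of the difference itself in one limma fit. Longer p53 activation and longer Trim24 loss cannot be told apart here, since dTAG13 and doxorubicin were given together. The log2 difference between the effect at 12 h and the effect at 4 h was -0.48 for Polk and -0.39 for Ercc5. At 12 h Polk averaged 58.3 ± 3.59 CPM in Trim24-degraded cells and 77.8 ± 6.36 CPM with Trim24 kept, and at 4 h 110 ± 5.54 CPM in degraded cells and 105 ± 5.44 CPM with Trim24 kept (SD, n = 3 each). Ercc5 averaged 177 ± 2.48 CPM in degraded cells and 213 ± 17.4 CPM with Trim24 kept at 12 h, and 155 ± 2.23 CPM in degraded cells and 142 ± 3.66 CPM with Trim24 kept at 4 h. In the 21 groups of 4 libraries, 1 for each gene and group of the RING experiment, no library stood apart from the others.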

How the results depend on the processing

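Of 2135 log2 changes of the 7 genes under alternatives that kept both thresholds, 2127 stayed on their side of the thresholds, 7 lost them, 1 gained them and 0 turned sign while past them. Among the 2127, 61 values that were past both thresholds in neither fit changed sign. On activation for 2 h the count of genes past both thresholds was 2, and 1 after quantile normalization and 1 after median centring, where Ercc5 stood at 0.72 and 0.75, just short. Leaving out 1 library gave 1 to 2. Between 4 and 8 h quantile normalization gave 2, with Ercc5 added at 0.82. With no limit on size, the adjusted p under 0.01 gave 5 on activation for 4 h, 5 for 8 h and 5 for 12 h, 3 between 2 and 4 h, 4 between 4 and 8 h, 2 for Trim24 loss at 12 h, 2 for its difference from 4 h, 2 for loss in the RING experiment, and 1 and 3 for ligase-null cells against cells with Trim24 kept and against degraded cells. At an adjusted p under 0.05 these counts were 6, 5, 6, 3, 6, 4, 2, 2, 2 and 3 in the same order, with 1 for Trim24 loss at 4 h and 4 in wild-type cells. The share of all genes was not counted at 0.05. Nor was it counted at 0.01 without a limit on size for the steps between 2 and 4 h and between 4 and 8 h. These counts are therefore not read as a result about the 7 genes.

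Plain moderation, with no trend or robust step, took the adjusted p above 0.01 for Polk and Ercc5 on Trim24 loss at 12 h (0.0195 and 0.0564), for Xpc and Ercc5 in the RING experiment (0.0537 and 0.0316), and for the differences between 12 and 4 h (0.0168 and 0.0153). It did so for Polh on activation for 4 h (0.0198), Xpc between 4 and 8 h (0.0261), Rrm2b in wild-type cells (0.0135) and Polk in ligase-null against degraded cells (0.0432) too. Quantile normalization gave 0.0483 for Ercc5 at 12 h. The causes were not tested.

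Same-numbered deviations correlated at -0.207 to 0.198 and exceeded 0.1 in 7 of 44 pairs, so no pairing by replicate number was seen. These values cannot exclude pairing, since the deviations of the few libraries in a group sum to 0. The fit with a replicate block gave 2 genes on activation for 2 h, 3 each for 4, 8 and 12 h, 2 in wild-type cells, 1 each for the steps to 4 and 8 h, and 0 in the rest, as without it. It was not run for ligase-null cells, which share 1 number with the other groups. Depth limited Ddb2 most, at 76 to 282 reads per library.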
